A study of Mus musculus with 6 samples.

Results

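The nuclear genes for the ubiquitous subunits of respiratory complexes II, III, IV and V, with the gene for cytochrome c, were followed in mouse liver. The 34 genes were taken by symbol from a list of the subunits of these complexes, and all 34 were found among the 24341 gene symbols of the liver table. They comprise 4 genes of complex II, 9 of complex III, cytochrome c, 5 of complex IV and 15 of complex V. A filter on low values (at least 1 FPKM in at least 3 libraries) left 33 of the 34 and 10963 genes in all. FPKM counts fragments per kilobase of transcript at a common number of mapped fragments.

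The study measured poly(A) RNA from 6 liver samples of C57BL/6 mice on regular chow. Each library is called a liver below, but no label states that each came from its own animal, and p-values then reflect only how far these samples spread, which may be technical. The 3 controls are labelled Prkciflox/flox, so their Prkci alleles carry loxP sites. The other 3, labelled Prkciflox/floxAlbCre, carry the same floxed alleles and a Cre recombinase under the albumin promoter, which is active chiefly in hepatocytes among the cells of the liver, so they are labelled hepatocyte knockouts. They are called AlbCre-labelled here and are drawn as knockout in the plots. All 6 sample labels give an age of 30 weeks, whereas the text of the series gives 28 weeks. Prkci encodes the atypical protein kinase C lambda/iota, and the series title relates this kinase to autophagy and oxidative phosphorylation in hepatocytes.

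Complexes II to IV pass electrons from succinate and ubiquinol to oxygen, and complexes III and IV pump protons across the inner mitochondrial membrane as they do so. Cytochrome c carries the electrons from complex III to complex IV. Complex V, the ATP synthase, lets the protons flow back through a rotating ring of subunit c and uses the rotation to make ATP. Hepatocytes are rich in mitochondria and draw on this chain for gluconeogenesis, urea synthesis and fat oxidation. Subunits encoded in the mitochondrial genome were not analysed here.

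No subunit gene passed the test between the groups. Among 33 tested genes, limma called 0 at a Benjamini-Hochberg adjusted p under 0.05, against 0.0274% of all genes tested, and the adjusted p ran from 0.421 to 0.990. Of the 33, 21 had a lower mean in the AlbCre-labelled livers and 12 a higher one, so 63.6% were lower where 43.9% of all tested genes were. Among the 803 tested genes with a mean of at least 100 FPKM, the level of most members, 55.8% were lower. The median log2 difference was -0.09 over the members, 0.04 over all tested genes and -0.05 over the 803 tested genes with a mean of at least 100 FPKM. The members' median was -0.0151 without control replicate 2 and 0.0108 with sample quality weights, so its sign depends on how the livers are weighted. Those weights were 0.264, 0.841 and 8.3 for AlbCre-labelled replicates 1 to 3, so weighted values rest mostly on replicate 3 in that group. The differences were small, since the ratio of the means, AlbCre-labelled over control, ran from 0.774 for Sdhb to 1.27 for Atp5g2. The 95% intervals of all 33 log2 differences lay between -0.77, the lower bound for Cox6c, and 0.81, the upper bound for Cycs, so no interval reached a 2-fold change.

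The libraries differed in ways that the groups do not show, and these values are given first. Prkci itself measured 5.57, 3.65 and 4.44 FPKM across the controls, replicates 1 to 3 in order as throughout, and 5.70, 5.26 and 4.42 FPKM across the AlbCre-labelled livers (log2 difference 0.15, SE 0.17, limma adjusted p = 0.813). A lower level was thus not seen in whole-gene FPKM, the sources used here do not name the deleted part, and directions rest on the labels. AlbCre replicate 1 stood apart from replicates 2 and 3. Over 24 PPARA targets its mean log2 level relative to the controls was -0.20, where the 2 others were at 2.02 and 1.88, and over 22 cholesterol synthesis genes it was 0.29 against -2.37 and -1.84. Its summed neutrophil markers (4 of 5 listed genes in the table) were at 266 FPKM, against 5.43 to 27.8 FPKM in the 5 other livers, and all 4 were highest there. Of the 5 cholangiocyte markers, Spp1 was at 144 FPKM in AlbCre replicate 1, above the 5 other livers, whereas Krt19, Krt7 and Epcam were below every control there, each under 1 FPKM. All 8 hepatocyte markers were detected in the table, and their sum ran from 16470 to 28150 FPKM in the controls and from 11750 to 23330 FPKM in the AlbCre-labelled livers. The highest of these sums was in control replicate 2 and the lowest in AlbCre replicate 1. Apoa1, Serpina1a and Cyp2e1 were lowest in AlbCre replicate 1, whereas the other hepatocyte markers were not.

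The members took 1.66 to 1.89% of the summed FPKM of each library. Of the 34 genes, 30 averaged at least 100 FPKM and 31 were among the 1000 most abundant rows of the table. The order of the levels was close to the same in every liver, with Spearman's rho over the 33 tested members between 0.93 and 0.99 for every pair of libraries. This is a description over genes that share each library.

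**Figure D1:**
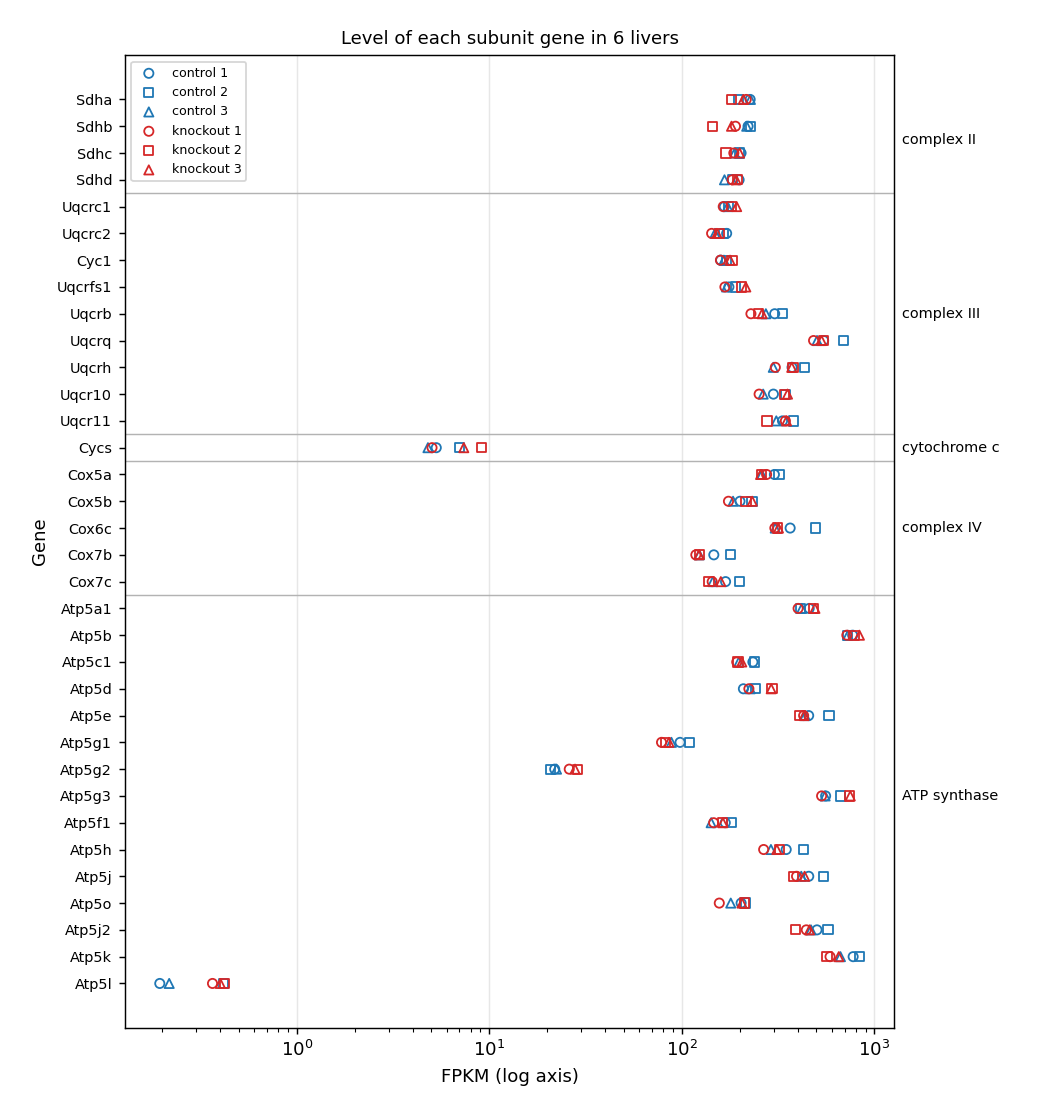
FPKM (log axis) of each of the 34 subunit genes in each of the 6 livers, with controls in blue, AlbCre-labelled livers in red and marker shapes for the replicate number. Most genes sit between 100 and 1000 FPKM with the colours mixed, whereas Cycs, Atp5g2 and Atp5l lie lower.

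Complex II oxidises succinate and belongs to the tricarboxylic acid cycle as well as to the chain. Its genes were on average lower in the AlbCre-labelled livers, with 3 of 4 below the control mean and a median log2 difference of -0.10, which was -0.0298 without AlbCre replicate 2. The lowest of them was Sdhb, which encodes the iron-sulphur protein and lies on the plus strand at chr4:140961203-140979193 (GRCm38). Sdhb stood at 221, 228 and 217 FPKM among controls and 190.0, 145 and 181 FPKM among AlbCre-labelled livers. Every one of the latter lay below every control, with the widest gap in replicate 2 (log2 difference -0.38, SE 0.15, limma adjusted p = 0.488). Sdhb was also the one member lower at an unadjusted p under 0.05, where 3.59% of all tested genes were, and with the replicate number as a block 0 members were. The count was also 0 without control replicate 1 or 2 and without AlbCre replicate 2 or 3.

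The catalytic flavoprotein gene Sdha stood at 226, 198 and 227 FPKM among controls and 216, 181 and 209 FPKM among AlbCre-labelled livers, so the groups overlapped. Sdhd, a membrane anchor, stood at 198, 183 and 167 FPKM against 183, 195 and 191 FPKM, and was the single gene of complex II with a higher mean (log2 difference 0.06, SE 0.13). Sdhc, the other anchor, averaged 197 ± 7.97 against 185 ± 14.9 FPKM (SD, n = 3 libraries, as for all errors with ±). Averaged over the 4 genes, the controls lay 0.06, -0.02 and -0.04 from their own mean and the AlbCre-labelled livers -0.08, -0.25 and -0.06. The groups did not overlap for this mean, although control replicate 3 and AlbCre replicate 3 were close. The 4 levels were close to each other, with 1.13 times between the highest and the lowest mean, and no neighbours in their order were separated in all livers.

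Complex III passes electrons from ubiquinol to cytochrome c. Of its 9 genes, 4 were higher and 5 lower in mean (median log2 difference -0.06). The sign of the median turned without control replicate 2 (0.069) and without AlbCre replicate 1 (0.0394), and the median shrank to -0.011 without AlbCre replicate 2 and grew to -0.14 without control replicate 3 and -0.10 without AlbCre replicate 3. Of the 4 core and catalytic subunits 3 were higher, and of the 5 small accessory subunits 4 were lower. Uqcrfs1, the Rieske iron-sulphur protein, had the largest positive difference of the complex. It stood at 176, 189.7 and 171 FPKM among controls and 167, 205 and 215 FPKM among AlbCre-labelled livers. Replicates 2 and 3 lay above every control and replicate 1 below every control (log2 difference 0.12, SE 0.14, limma adjusted p = 0.818). Cyc1, which encodes cytochrome c1, averaged 165 ± 6.13 against 173 ± 12.5 FPKM, and the core protein gene Uqcrc1 averaged 171 ± 4.19 against 180 ± 14.4 FPKM. These 2 showed the same placing of the livers, with replicates 2 and 3 above and replicate 1 below all controls. Uqcrc2, the second core protein gene, averaged 162 ± 11.6 against 151 ± 6.99 FPKM.

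The accessory subunit gene Uqcrb stood at 304, 335 and 273 FPKM among controls and 229, 249.9 and 261 FPKM among AlbCre-labelled livers. The groups did not overlap (log2 difference -0.30, SE 0.14, limma adjusted p = 0.544). Uqcrq, the most abundant gene of the complex, stood at 545, 693 and 504 FPKM against 483, 543 and 532 FPKM, and its highest value was in control replicate 2. The hinge protein gene Uqcrh averaged 369 ± 68.7 against 352 ± 40.1 FPKM, Uqcr10 303 ± 40.1 against 315.5 ± 55.3 FPKM and Uqcr11 341 ± 35.5 against 324 ± 40.8 FPKM. All 3 overlapped between the groups. As levels per length, the 5 accessory genes lay above the 4 core and catalytic ones, and Uqcrb, the lowest of the former, was above Uqcrfs1, the highest of the latter, in every liver.

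Cycs, the somatic cytochrome c gene, stood at 5.31, 7.03 and 4.80 FPKM among controls and 5.04, 9.16 and 7.38 FPKM among AlbCre-labelled livers. Replicates 2 and 3 lay above every control and replicate 1 among them, so the groups overlapped (log2 difference 0.27, SE 0.23, limma adjusted p = 0.737). The level was far below that of every subunit gene of complexes II to IV. Of its 75-base windows, the length of a read in this study, 26.1% also occurred in transcripts of other annotated genes, chiefly Gm10053, so that its level is uncertain.

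Complex IV, cytochrome c oxidase, reduces oxygen to water. The 5 structural subunits listed as ubiquitous had a median log2 difference of -0.21, with 4 of 5 lower in the AlbCre-labelled livers. The median was -0.0899 without control replicate 2 and -0.32 without control replicate 3. The groups overlapped for each of the 5 genes, each time with control replicate 3 inside the range of the AlbCre-labelled livers. Cox6c, the most abundant of them, stood at 365, 495 and 306 FPKM among controls and 304, 313 and 318 FPKM among AlbCre-labelled livers (log2 difference -0.29, SE 0.20, limma adjusted p = 0.668). The 3 latter values were nearly equal, whereas the controls spread widely and were highest in replicate 2. Cox5b stood at 201, 231 and 185 FPKM against 175, 215 and 232 FPKM, with a log2 difference of 0.01. Cox7b averaged 149 ± 27.7 against 121.5 ± 2.83 FPKM, Cox7c 171 ± 27.5 against 147 ± 10.97 FPKM and Cox5a 294 ± 30.5 against 264 ± 10.2 FPKM. The mean level of the 5 genes was -0.01, 0.24 and -0.22 in the controls and -0.24, -0.19 and -0.13 in the AlbCre-labelled livers.

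ATP synthase was represented by 15 genes, of which 14 were tested, with 5 higher and 9 lower in mean and a median log2 difference of -0.12. This median was -0.0428 without control replicate 2, -0.0762 without AlbCre replicate 1 and -0.20 without control replicate 3. The F1 head holds the catalytic sites. Atp5b, its catalytic beta subunit and the most abundant member of all, stood at 771, 727 and 729 FPKM among controls and 719.7, 785 and 837 FPKM among AlbCre-labelled livers. AlbCre replicates 2 and 3 exceeded every control, while replicate 1 was the lowest of the 6 (log2 difference 0.07, SE 0.15). Atp5a1, the alpha subunit, averaged 430.5 ± 24.8 against 459 ± 49.5 FPKM with the same placing of the livers. In the central stalk, Atp5d averaged 225 ± 15.9 against 269 ± 40.2 FPKM, with the 2 high values in replicates 2 and 3, and Atp5c1 averaged 224 ± 22.6 against 198 ± 6.19 FPKM. Atp5e, the epsilon subunit, stood at 456, 581 and 437 FPKM against 429, 411 and 431 FPKM. Its groups did not overlap, by a margin of a few FPKM between control replicate 3 and AlbCre replicate 3 (log2 difference -0.20, SE 0.16, limma adjusted p = 0.723).

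The peripheral stalk holds the head still against the turning ring, and all 4 of its genes averaged less in the AlbCre-labelled livers, with overlap in each. Atp5h (subunit d) averaged 355 ± 68.4 against 299 ± 29.2 FPKM, Atp5j (coupling factor 6) 473 ± 66.2 against 403 ± 28.0 FPKM, Atp5f1 (subunit b) 164 ± 20.0 against 157 ± 9.50 FPKM and Atp5o (the oligomycin sensitivity-conferring protein) 199 ± 17.7 against 191 ± 30.2 FPKM. The small membrane subunits e, f and g help to join synthases into dimers. Atp5k, subunit e, stood at 776, 836 and 667 FPKM among controls and 589, 568 and 654 FPKM among AlbCre-labelled livers, without overlap (log2 difference -0.33, SE 0.16, limma adjusted p = 0.558). Atp5j2, subunit f, stood at 504, 574 and 469 FPKM against 443, 389 and 461 FPKM, also without overlap (log2 difference -0.26, SE 0.15, limma adjusted p = 0.619).

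Atp5l, subunit g (minus strand, chr9:44912557-44920742), was listed at 0.194, 0.416 and 0.218 FPKM among controls and 0.365, 0.423 and 0.401 FPKM among AlbCre-labelled livers, far below every other subunit of the enzyme. On a transcript of 544 bases and the estimated read totals, these values come to 1.11, 2.22 and 1.11 reads in the controls and 2.21 reads in each of the 3 others, that is, to the first and second step of the scale. Of the 75-base windows of that transcript, 63.4% also occur in other annotated genes, 9 in all and each of them a processed pseudogene, with Gm10221 first. The 9 are not among the symbols of the table. The sources used here do not say how reads that match several genes were treated, and its part in these values was not tested.

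**Figure D2:**
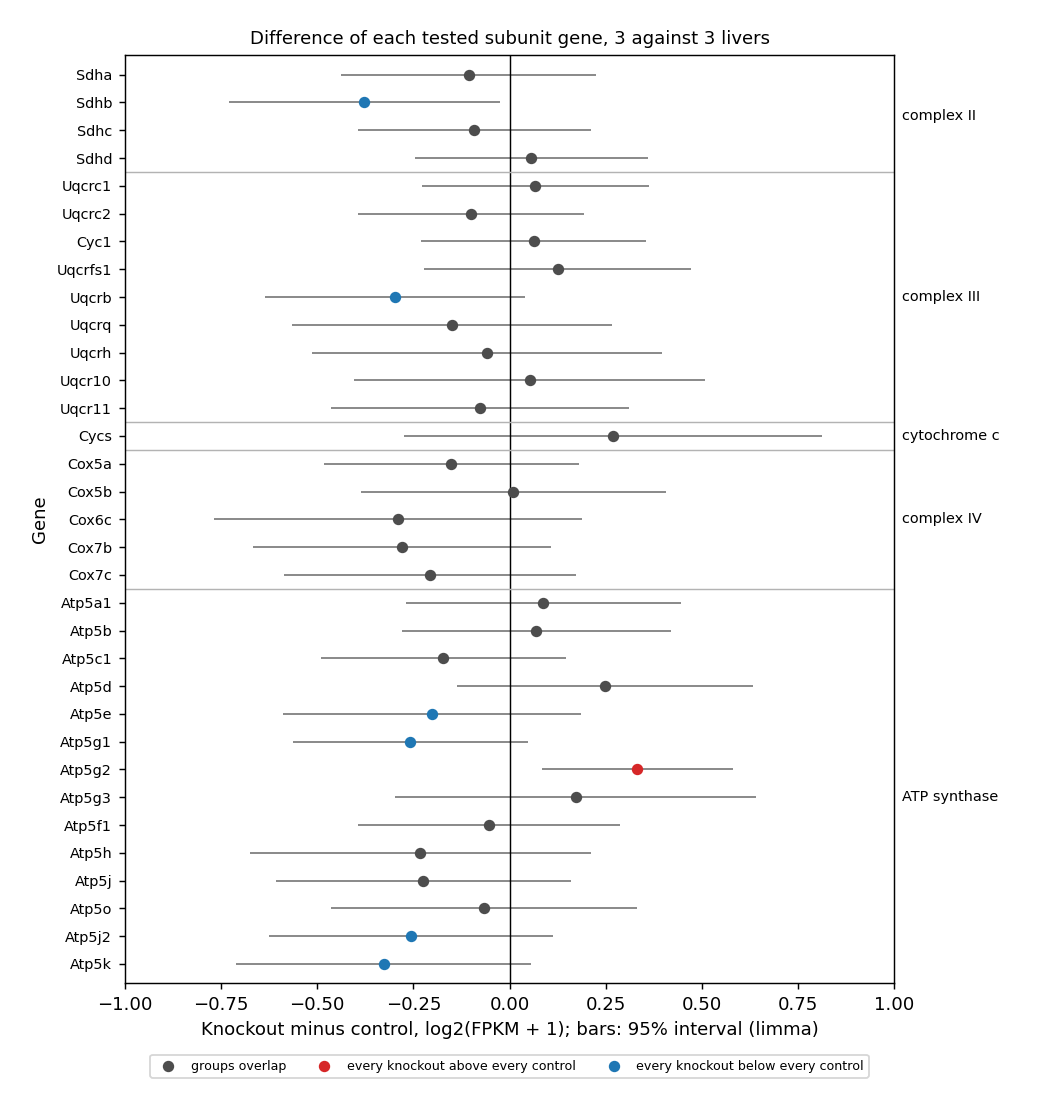
Difference between the AlbCre-labelled livers and the controls for each of the 33 tested genes, on the log2(FPKM + 1) scale, with 95% intervals from limma. Blue marks the 6 genes in which every AlbCre-labelled liver lay below every control, red marks Atp5g2, the single gene with the reverse, and grey the 26 genes with overlap.

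The groups failed to overlap for 7 of the 33 tested genes. These were 6 lower genes (Sdhb, Uqcrb, Atp5e, Atp5g1, Atp5j2 and Atp5k), or 18.2%, and 1 higher gene (Atp5g2), or 3.03%. Among all tested genes, 5.56% were lower and 10.7% higher without overlap, and among those with a mean of at least 100 FPKM 14.8% and 6.97%. Members of 1 complex share libraries and expression level, so these shares are descriptions. Without control replicate 3, a liver in which most members were low, 17 of the 33 (51.5%) were lower without overlap, where 11.5% of all tested genes were. Without AlbCre replicate 3 it was 10 (30.3%) against 7.35% of all. With livers left out, the share among genes of at least 100 FPKM was not computed. With all livers that share was the higher background for lower genes, so these contrasts with all genes may overstate the members. Without AlbCre replicate 1, 9 (27.3%) were higher without overlap against 18.3% of all.

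Subunit c, the proton-carrying subunit of the ring, is made from 3 genes that encode the same mature protein behind different import sequences. The 3 genes differed in level and in the sign of their difference. Atp5g3 dominated, at 558, 669.9 and 555 FPKM in the controls and 532, 743 and 749.8 FPKM in the AlbCre-labelled livers, where replicates 2 and 3 lay above and replicate 1 below all controls (log2 difference 0.17, SE 0.20). Atp5g1 stood at 97.9, 109.6 and 88.3 FPKM against 78.5, 82.0 and 85.8 FPKM, lower in each of the 3 (log2 difference -0.26, SE 0.13, limma adjusted p = 0.564). Atp5g2 stood at 21.9, 20.8 and 22.4 FPKM against 26.03, 28.7 and 27.9 FPKM, higher in each of the 3 (log2 difference 0.33, SE 0.10, 95% interval 0.08 to 0.58, limma adjusted p = 0.421). It was the one member higher at an unadjusted p under 0.05, where 6.34% of all tested genes were. It did not stay so without AlbCre replicate 2 or 3, nor with centring, quantile normalization or median-ratio scaling of the libraries, and with centring the groups overlapped. Of its 75-base windows, 86.9% also occur in the transcribed pseudogene Gm10175, and Mir688 overlaps its exons on the same strand, so its level is uncertain. Atp5g1 shares 7.5% of its windows and Atp5g3 none. In all, 15 of the 34 members share at least 1 window with another annotated gene. Among them are Cox7c with 50.4%, Atp5h with 36.5% and Uqcrb with 29.1%, and their levels are uncertain to that extent. Atp5o shares 27.1%, chiefly with a second annotated entry of the same symbol (22.1%), and 10.2% with the pseudogene Gm5436.

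As shares of the summed FPKM of the 3 genes, Atp5g1 gave 14.4, 13.7 and 13.3% in the controls and 12.3, 9.60 and 9.93% in the AlbCre-labelled livers, without overlap (13.8 ± 0.594% against 10.6 ± 1.49%, exact two-sided permutation test p = 0.1, the smallest that 3 against 3 libraries allow). Atp5g3 gave 83.1 ± 0.718% against 85.8 ± 1.94% and Atp5g2 3.06 ± 0.407% against 3.56 ± 0.463%, each with overlap (exact p = 0.2 for both). The summed level of the 3 genes was 715 ± 74.4 against 785 ± 128 FPKM, so the total of subunit c transcripts overlapped between the groups.

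**Figure D3:**
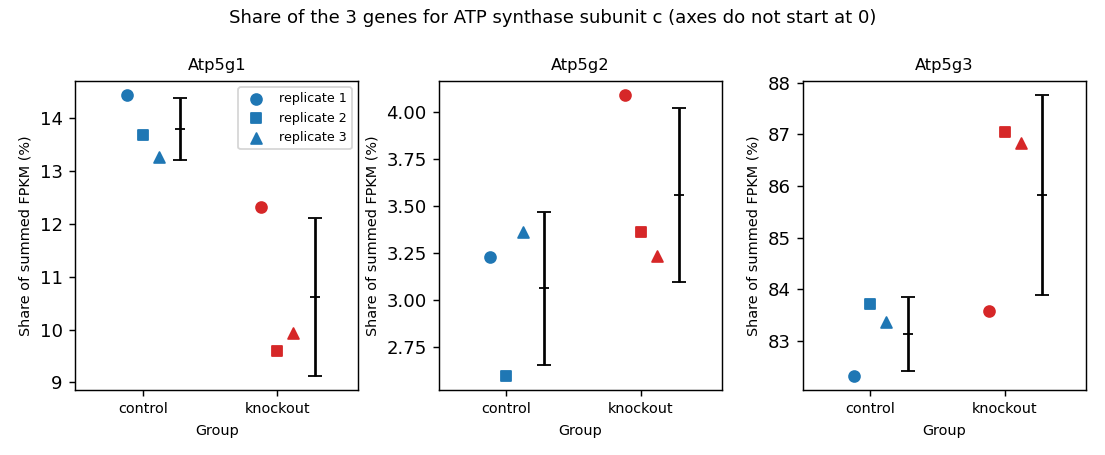
Share (%) of the summed FPKM of Atp5g1, Atp5g2 and Atp5g3 that each gene gives in each liver, with the mean and SD of 3 libraries per group beside the points; the vertical axes differ and do not start at 0. The share of Atp5g1 is at most 12.3% in the 3 AlbCre-labelled livers and at least 13.3% in the 3 controls.

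The sequences before the starts of these 3 genes are shown because they stand ahead of the same mature protein and the genes differed in sign, with those of Atp5k and Cycs, which hold the same motif as Atp5g2. Each is the 100 bases directly before the gene start from RefSeq (GRCm38.p6, the build also called mm10), read 5′ to 3′ on the gene's strand, which is the minus strand for all 5. Capitals mark matches, on either strand, to GCGCATGCG, the core of the motif of NRF1, a transcription factor known for its sites in respiratory chain promoters. In Atp5g2 and Atp5k the run of capitals is made of overlapping matches on opposite strands. They lie at chr11:96075632-96075731 for Atp5g1, chr15:102671048-102671147 for Atp5g2, chr2:73911327-73911426 for Atp5g3, chr5:108434400-108434499 for Atp5k and chr6:50566570-50566669 for Cycs. The starts are those of RefSeq, and GENCODE places the start of Atp5g1, Atp5g2 and Atp5k further upstream, inside or beyond the printed stretch.
Atp5g1: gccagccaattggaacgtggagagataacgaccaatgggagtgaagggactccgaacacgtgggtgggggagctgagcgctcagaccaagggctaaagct
Atp5g2: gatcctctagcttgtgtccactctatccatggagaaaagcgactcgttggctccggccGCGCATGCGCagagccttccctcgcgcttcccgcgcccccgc
Atp5g3: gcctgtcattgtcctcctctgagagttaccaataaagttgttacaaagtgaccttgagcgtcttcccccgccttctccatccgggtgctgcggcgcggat
Atp5k: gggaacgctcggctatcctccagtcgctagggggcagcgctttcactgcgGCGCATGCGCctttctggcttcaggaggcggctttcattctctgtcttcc
Cycs: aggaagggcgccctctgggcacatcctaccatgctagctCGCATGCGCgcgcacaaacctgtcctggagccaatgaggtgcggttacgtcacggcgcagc

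Over the 250 bases before the start, the RefSeq table held 27 of the 34 members, that is, all but Sdhc, Uqcrc2, Cyc1, Uqcrb, Uqcrq, Cox6c and Atp5a1. The NRF1 core matched 4 of the 27 (Atp5g2, Atp5k, Atp5l and Cycs), or 14.8%, against 1.64% of all 27025 genes in the table. The sequence CCGGAAGT, the core bound by ETS factors such as GABPA, matched 3 (Atp5h, Uqcr11 and Uqcrh), or 11.1%, against 3.23%, and ATGGCGGC, a core of YY1 sites, matched 0 against 1.19%. Both strands were read, and a gene with several listed starts counts where any of them matched. Atp5g2 and Atp5k carry the same 10 bases and had log2 differences of 0.33 and -0.33.

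Control replicate 2 held the highest value for 18 of the 33 tested members, and AlbCre replicate 1 the lowest for 17. Over all tested genes the same livers held the highest value for 15.6% and the lowest for 8.43%. Averaged over the 33 members, the controls lay -0.00, 0.13 and -0.13 from their own mean and the AlbCre-labelled livers -0.17, -0.06 and 0.01, with overlap. Control replicate 2 had the lowest sums of macrophage markers (136 FPKM over 10 genes) and of sinusoidal endothelial markers (56.1 FPKM over 7 genes), where the 5 other livers ran from 257 to 855 and from 92.05 to 194 FPKM. AlbCre replicate 1 had the highest macrophage sum, 855 FPKM, although Marco was at 13.5 FPKM there against 34.6 and 23.1 FPKM in AlbCre replicates 2 and 3. Over the 6 livers, stellate cell markers summed to 88.5 to 209 FPKM, erythroid markers to 30.4 to 183 FPKM, T and B cell markers to 1.33 to 4.34 FPKM, and muscle and brown fat markers to 0.114 to 0.848 FPKM with Ucp1 at 0. The highest stellate and erythroid sums were in AlbCre replicate 1, although the stellate marker Lrat was highest in control replicate 1. The hepatocyte sum was highest in control replicate 2 and lowest in AlbCre replicate 1. The part of these other cells in the members' levels was not tested, and in bulk liver fewer hepatocytes and less RNA per hepatocyte cannot be told apart.

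**Figure D4:**
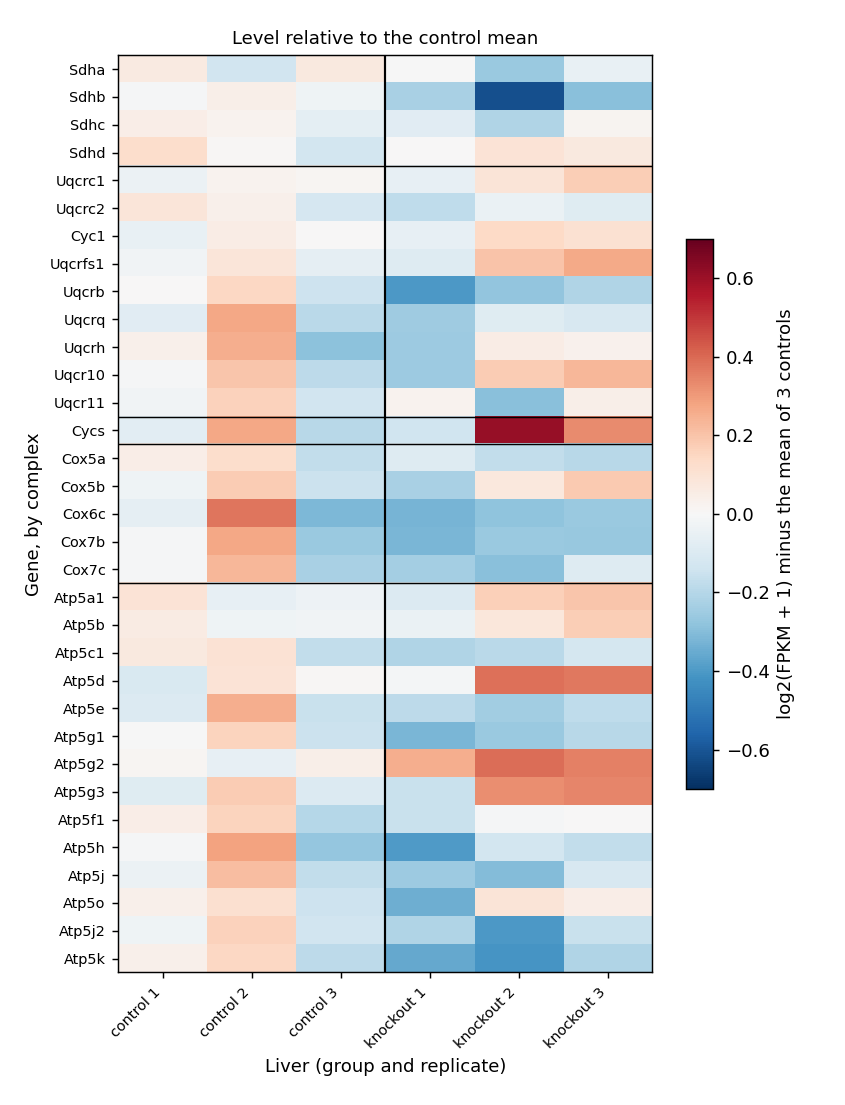
Level of each of the 33 tested genes in each liver as log2(FPKM + 1) minus the mean of the 3 controls, with rows grouped by complex and a line between the groups. Control replicate 2 is red and control replicate 3 blue for most rows, and in the AlbCre-labelled livers replicates 2 and 3 share a pattern that replicate 1 does not show.

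Within the AlbCre-labelled livers, replicates 2 and 3 split the members in another way. In 9 genes both lay above every control, namely Uqcrc1, Cyc1, Uqcrfs1, Cycs, Atp5a1, Atp5b, Atp5d, Atp5g2 and Atp5g3. Of these, 6 had replicate 1 below every control, and Atp5g2 had it above. In 7 genes both lay below every control, namely Sdhb, Uqcrb, Cox5a, Atp5e, Atp5g1, Atp5j2 and Atp5k. These are 27.3% and 21.2% of the 33, against 18.3% and 20.1% of all tested genes, so the second share was near the background. By role, the 9 comprise both catalytic subunits of complex III, 3 of the 5 F1 genes and 2 of the 3 subunit c genes. They hold 0 genes of complex II and 0 of complex IV. The 7 include the F1 gene Atp5e and the remaining subunit c gene, Atp5g1. Atp5g2 and Cycs, of uncertain level, are among the 9. These roles are a description of a split taken from the same livers, and a link with role was not tested. Replicate 1 lay below every control in 24 members, or 72.7%, where 14.5% of all tested genes did so.

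With AlbCre replicate 1 left out, the log2 difference was 0.38 for Atp5d, 0.33 for Atp5g3, 0.47 for Cycs, 0.23 for Uqcrfs1, 0.37 for Atp5g2 and -0.45 for Sdhb, and the limma adjusted p of these 6 ran from 0.178 to 0.422. No member was called without it, although 158 of all tested genes were, against 3 with all livers.

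**Figure D5:**
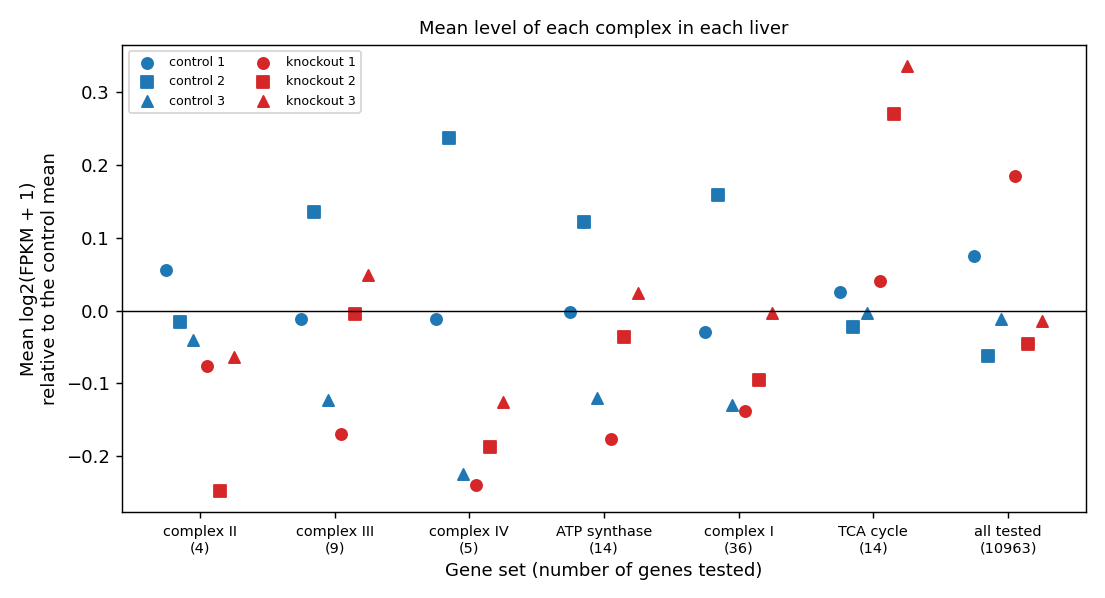
Mean log2(FPKM + 1) over the tested genes of each complex, of complex I, of the tricarboxylic acid (TCA) cycle and of all tested genes, relative to the mean of the 3 controls, for each liver (controls blue, AlbCre-labelled livers red). In complexes I, III, IV and V control replicate 2 is highest and AlbCre replicate 1 lowest, whereas in the TCA cycle AlbCre replicates 2 and 3 stand above the other livers.

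Short transcripts were looked at apart, because many small subunits have them and FPKM divides by length. Of the 16 tested members with a transcript under 1000 bases, 12 were lower in mean (median log2 difference -0.18), and of the 17 longer ones 9 were (median -0.05). Among all tested genes under 1000 bases, 354 of 739 were lower (47.9%, median 0.01), and 43.4% of the longer ones were (median 0.04). Spearman's rho between transcript length and log2 difference was 0.32 over the 33 members and 0.01 over 10580 genes, as a description over genes of the same libraries. In control replicate 2 the median level relative to the controls was 0.18 for the short members and 0.16 for all short genes, so that liver was high for short transcripts in general. The part of transcript length in the differences was not tested.

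Other genes of the pathway were read in the same fit from lists of its genes, and limma called 0 of them after adjustment over all tested genes. Assembly factors of complex IV, which insert haem and copper or hold the new subunits, split into 15 higher and 9 lower of 24, with a median log2 difference of 0.03. Cox19, a copper-linked factor, averaged 28.4 ± 1.90 against 44.8 ± 5.65 FPKM (log2 difference 0.63, SE 0.13, adjusted p = 0.313), and Cox16 and Cmc1 averaged 29.0 ± 2.98 against 21.9 ± 0.686 FPKM and 17.2 ± 0.70 against 13.5 ± 0.368 FPKM. Each of these 3 had an unadjusted p under 0.05 and no overlap. At that p 1 of the 24 was higher and 2 were lower, where 6.34% and 3.59% of all tested genes were. Cox15, Cox17 and Taco1 were also higher without overlap. In all, 4 of the 24 (16.7%) were higher and 2 (8.33%) lower without overlap, against 10.7% and 5.56% of all tested genes. Assembly factors of complexes II, III and V numbered 4, 5 and 4 tested genes with medians of -0.13, 0.03 and -0.01, and 0 had an unadjusted p under 0.05. Among 8 oxidase subunits with tissue isoforms, 5 were higher, and one of these, Cox6b2, an isoform known from testis, averaged 0.366 ± 0.132 against 2.16 ± 0.178 FPKM. Every control was under 1 FPKM for Cox6b2, so it passed the filter only through the AlbCre-labelled livers. Its higher placing was thus fixed by the filter, and its p-value is not read. In the list of complex I genes, 27 of 36 were lower (median -0.07). Averaged over the 36, control replicate 2 was highest (0.159) and AlbCre replicate 1 lowest (-0.138), as for complexes III, IV and V. Ndufa4, placed in that list by its symbol and the most abundant there, averaged 655 ± 166 against 605 ± 10.8 FPKM.

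The tricarboxylic acid cycle feeds electrons to the chain. Of its 14 enzymes beside succinate dehydrogenase, 10 were higher and 4 lower, with a median of 0.23, and 4 of the higher ones had an unadjusted p under 0.05, where 6.34% of all tested genes did. These were Ogdh (32.3 ± 3.60 against 47.0 ± 7.84 FPKM), Fh1 (109 ± 6.76 against 159 ± 31.7 FPKM), Dlst (71.4 ± 10.2 against 107 ± 24.2 FPKM) and Mdh2 (146 ± 8.31 against 193 ± 31.8 FPKM), with adjusted p from 0.428 to 0.503. Averaged over the list, the AlbCre-labelled livers lay at 0.04, 0.27 and 0.34 and the controls at 0.03, -0.02 and -0.00, so the groups did not overlap but AlbCre replicate 1 lay close to the controls. Sucla2 was lower without overlap (85.3 ± 4.5 against 74.9 ± 2.35 FPKM, limma adjusted p = 0.617). Of the 14, 3 (21.4%) were higher and 1 (7.14%) lower without overlap, against 10.7% and 5.56% of all tested genes. Among 11 regulators of mitochondrial biogenesis, 5 were higher and 6 lower. Esrra, a nuclear receptor that drives respiratory genes, averaged 13.5 ± 0.807 against 18.4 ± 0.428 FPKM (limma adjusted p = 0.350). Gabpa, an ETS factor of the same promoters, averaged 13.98 ± 2.19 against 10.6 ± 0.908 FPKM (limma adjusted p = 0.496). Ppargc1a averaged 2.685 ± 0.0324 against 2.30 ± 0.371 FPKM (limma adjusted p = 0.737). None of them overlapped. Of the 11, 1 (9.09%) was higher and 2 (18.2%) were lower without overlap, against 10.7% and 5.56% of all tested genes. Gabpa overlaps exons of the member Atp5j on the opposite strand.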

How the data were processed

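The deposited values are FPKM, 1 column per library with 0 other columns of sample values. The unit was read from the values, and the submitters' processing notes name STAR and DESeq2, without versions or roles, and the mm10 build. The library kit kept strand, per the labels' protocols. For the quantifier, the annotation, the strand setting in counting and reads with several matches, the sources used here give nothing. Low FPKM values moved in steps of 1 read, which put the read totals at 14780000 to 17620000 (60.7 to 64.9% of low values within 0.05 of a whole read, where an even spread gives 10%), so depth did not separate the groups.

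Values were compared as log2(FPKM + 1) with limma 3.58.1 in R 4.3.3 (intensity trend, 3 against 3 libraries, Benjamini-Hochberg adjustment over all 10963 tested genes, threshold 0.05). The fit was also run on simulated data with independent noise and differences larger than those of the members. That run therefore does not show whether differences as small as theirs would be called. Fold changes on the log2(FPKM + 1) scale understate those of low genes. Single values were compared with an exact permutation test (SciPy 1.17.1). Transcripts, coordinates and the 75-base windows came from GENCODE M21, on which all 34 members matched by symbol, and promoters from RefSeq. The length of a gene is that of its longest APPRIS principal transcript, or of its longest transcript where none is marked.

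The members and lists were chosen with earlier results of these data known. Members are given for every liver where they are the most abundant or of extreme difference in a complex, do not overlap or have an unadjusted p under 0.05, with Cycs and the subunit c genes. Pathway genes are those with an unadjusted p under 0.05, at most 4 a list, or else the most abundant. Cox15, Cox17, Taco1, Sucla2 and Ppargc1a were added as the remaining genes of their lists without overlap. Ndufa4 is counted with complex I by its symbol, which does not settle the complex of its protein. No libraries held identical values. Same-numbered libraries deviated together from their group means (r = 0.477, 0.279 and 0.283 for numbers 1, 2 and 3), so the fit was repeated with a replicate block. Normalization, pseudocount, filter and left-out libraries were varied.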

Additional observations from a re-analysis of the deposited data

How the results depend on the processing

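Under 19 alternatives, 0 of 627 member values were called, with a lowest adjusted p of 0.0561 (Atp5g2 with sample quality weights). Of the 33 members, 25 kept the sign of their difference throughout, and the 8 others took the other sign under at least 1 alternative, by at most 0.15. With quality weights these were Sdhc (0.0108), Uqcrh (0.11), Uqcr11 (0.0576), Atp5f1 (0.0557) and Atp5o (0.0835). With libraries centred on their median they were Sdhd (-0.00018), Uqcr10 (-0.0045) and Cox5b (-0.0467), and with median-ratio scaling Cox5b (-0.0158). Without both libraries numbered 1 they were Uqcrh (0.0563), Atp5f1 (0.0198) and Atp5o (0.0879). Without those numbered 2 they were Uqcrh (0.0148), Uqcr11 (0.11) and Atp5f1 (0.0014), and without those numbered 3 Sdhd (-0.0156), Uqcr10 (-0.13) and Cox5b (-0.15). With 1 library left out, the range was -0.0083 to 0.12 for Sdhd, -0.20 to 0.069 for Uqcrh, -0.0408 to 0.21 for Uqcr10, -0.14 to 0.033 for Uqcr11, -0.0766 to 0.13 for Cox5b, -0.15 to 0.0237 for Atp5f1 and -0.15 to 0.0708 for Atp5o. The median of complex III turned to 0.11 with quality weights and ran from -0.14 to 0.069 with 1 library left out, and the medians of complexes IV and V were -0.38 and -0.24 without both libraries numbered 3, -0.0779 and -0.064 without both numbered 2 and -0.14 and -0.0096 with quality weights. Without both libraries numbered 1 or 2 the median of complex III was 0.0563 and 0.0506. Members higher at an unadjusted p under 0.05 numbered 1 at first, 0 with centring, with quantile normalization, with scaling and without both libraries numbered 2 or 3, 5 with quality weights and 0 to 3 with 1 library left out. Members lower at that p numbered 1 at first, 0 with the replicate block that pairs same-numbered libraries, 0 without both libraries numbered 1, 2 or 3, and 0 to 1 with 1 library left out; the block changed no adjusted call of a member. Members lower without overlap numbered 6 at first and 17 without both libraries numbered 3 (51.5%, against 13.4% of all tested genes). They numbered 6 to 17 with 1 library left out (18.2 to 51.5%, against 7.03 to 20.1%). Shares among abundant genes alone were not computed with libraries left out. Members higher without overlap numbered 1 at first, 0 with centring, 2 with quantile normalization, 10 and 2 without both libraries numbered 1 and 2 (30.3 and 6.06%, against 24.7 and 20.6% of all), and 1 to 9 with 1 library left out (3.03 to 27.3%, against 14.6 to 18.3%). Over all tested genes 3 were called at first, 537 with quality weights, 34 without both libraries numbered 1 and 4 to 158 with 1 library left out. The quality weights were 0.264, 0.841 and 8.3 for AlbCre replicates 1 to 3. Every weighted result given here thus rests mostly on replicate 3 in that group. Where 2 libraries remain in a group the spread rests on fewer samples; other causes were not tested. Depth limits Atp5l, at 1 or 2 reads.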
